A study of Mus musculus with 12 samples.

Results

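The genes described here belong to MHC class II antigen presentation in the mouse hippocampus. They are H2-Aa, H2-Ab1 and H2-Eb1, which encode class II chains, Cd74, the invariant chain, Ciita, the class II transactivator, and Lag3, a receptor that binds class II. They were taken by name from a table of 24318 genes, and all 6 were listed. The tested libraries came from hippocampus of 7-month-old 5xFAD mice, set against WT hippocampus of the same age, with 3 libraries each under the title prefix CG. The 5xFAD line carries transgenes with familial Alzheimer mutations, human APP among them, driven in neurons by Thy1 regulatory sequence. The labels give neither strain nor sex, and they do not say whether each library came from its own mouse, so the tests below weigh differences against a spread between libraries that may be technical.

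Class II molecules are pairs of an alpha and a beta chain that display peptides from endocytosed protein to CD4 T cells. The invariant chain fills the peptide groove and guides the pair to endosomes, where lysosomal proteases trim it and H2-DM exchanges the last fragment for a peptide. Ciita does not bind DNA itself but docks on the RFX, CREB and NF-Y factors held by the X and Y boxes of class II promoters, and interferon gamma is its classical inducer. In healthy brain, resting microglia show little class II, and perivascular, meningeal and choroid plexus macrophages carry more of it.

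Promoters are shown because class II chain genes are known to share a control module. RefSeq promoter sequences (GRCm38.p6) were listed for 2 of the 6 genes, H2-Aa and H2-Eb1. The 150 bases before each start are printed 5′ to 3′ on the gene's strand, H2-Aa from chr17:34287824-34287973 on the minus strand and H2-Eb1 from chr17:34305717-34305866 on the plus strand. Capitals mark the Y box letters CTGATTGG, the letters CTNGCAAC from the X box and the cyclic AMP response element letters TGACGTCA.
H2-Aa: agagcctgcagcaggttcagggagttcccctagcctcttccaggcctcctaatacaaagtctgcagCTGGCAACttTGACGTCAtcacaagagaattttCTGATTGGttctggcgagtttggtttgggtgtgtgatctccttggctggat
H2-Eb1: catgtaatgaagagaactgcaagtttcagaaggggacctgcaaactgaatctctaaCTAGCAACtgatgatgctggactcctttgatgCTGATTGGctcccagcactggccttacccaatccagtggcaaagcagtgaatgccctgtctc
The first base of the X box letters lay 33 bases before that of the Y box in H2-Aa and 32 bases before it in H2-Eb1. On either strand of windows from 250 bases before to 50 bases after the start, the Y box letters were found in 4.1% of 32851 promoters, the X box letters in 3.42%, the response element in 1.79%, and the X and Y letters together in 0.18%. The letters were chosen after these windows had been read, the motifs searched did not overlap in the windows shown, and a match is a run of letters and not a bound site. The same windows of H2-DMa, H2-DMb1 and H2-DMb2 held none of these runs, H2-Oa held the Y box letters alone, and H2-Ob the X box letters alone. H2-Eb2, which was listed at 0 FPKM in all 6 libraries, held both the X and the Y box letters, but with the Y box farther from the start than the X box.

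Values are FPKM, fragments scaled for transcript length and sequencing depth, which can be set side by side between genes. Total FPKM ran from 385214 to 412157 per library, and the steps between low values put relative depth between 0.793 and 1.15, with WT replicate 1 as 1, while the depth in reads is unknown. The library labelled 5xFAD replicate 3 goes against its label: Thy1, whose promoter drives the transgenes, was at 1136 and 1172 FPKM in 5xFAD replicates 1 and 2 and 305 FPKM in that library, against 296 to 340 FPKM in WT. Results are therefore given with all 6 libraries and with the 5 that leave it out, a choice made with these values known. Y-linked transcripts (Ddx3y, Eif2s3y, Kdm5d and Uty together) stood at 56.7 FPKM in 5xFAD replicate 1 and 63.3 FPKM in WT replicate 1 and at no more than 0.0204 FPKM elsewhere, while Xist, the transcript of the inactive X, was at 99.9 to 112 FPKM in the other 4 libraries. Replicate 1 of each genotype thus differs from the others in sex.

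Cd74 and Lag3 were higher in 5xFAD hippocampus once the library labelled 5xFAD replicate 3 was left out, and the class II chains were high in 1 5xFAD library and much lower in the other. Cd74 averaged 24.4 ± 15.7 FPKM in 5xFAD (SD, n = 2) and 2.62 ± 1.19 FPKM in WT (SD, n = 3). Lag3 averaged 9.50 ± 1.92 FPKM in 5xFAD (SD, n = 2) and 1.49 ± 0.0641 FPKM in WT (SD, n = 3). Ciita did not pass, at 0.598 ± 0.314 FPKM in 5xFAD (SD, n = 2) and 0.452 ± 0.0908 FPKM in WT (SD, n = 3), a difference smaller than its spread.

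**Figure D1:**
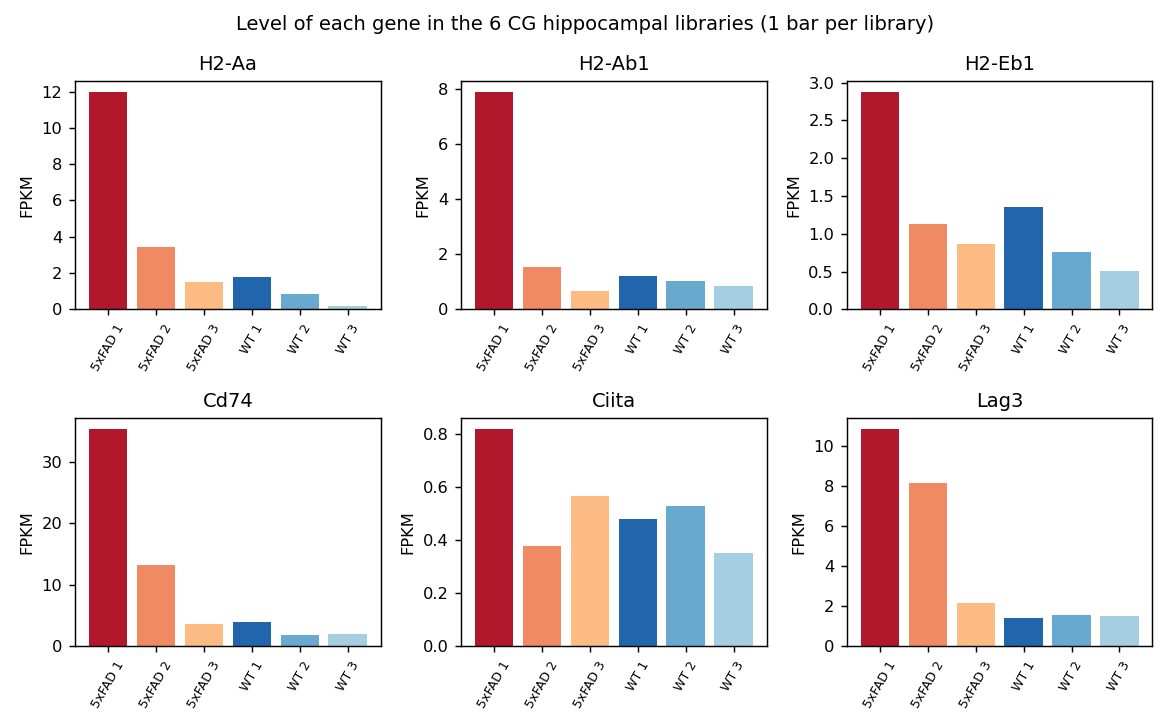
FPKM of each gene (y axes, each from 0) in each CG library (x axes), with the 5xFAD libraries to the left of the WT libraries. 5xFAD replicate 1 is the highest bar in all 6 panels, and the library labelled 5xFAD replicate 3 is close to WT, with Lag3 at 2.14 FPKM slightly above it.

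The alpha chain gene H2-Aa was at 11.98 and 3.46 FPKM in 5xFAD replicates 1 and 2, with 1.5 FPKM for the library labelled 5xFAD replicate 3, against 1.81, 0.873 and 0.177 FPKM in WT. Both 5xFAD replicates 1 and 2 lay above every WT library, while the library labelled replicate 3 lay within the WT range. Over the 5 libraries the log2 difference of FPKM + 1 was 2.05 (SE 0.49, limma adjusted p = 0.176), and over all 6 it was 1.52 (SE 0.57, limma adjusted p = 1.00). With sex as a term, added after the data were seen, the 5-library difference was 1.85 (SE 0.25) and passed (limma adjusted p = 0.0267).

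H2-Ab1, the beta chain that pairs with H2-Aa, was at 7.89 and 1.54 FPKM in 5xFAD replicates 1 and 2, with 0.651 FPKM for the library labelled 5xFAD replicate 3, against 1.20, 1.04 and 0.844 FPKM in WT. 5xFAD replicate 1 stood far above the rest, replicate 2 was just above the highest WT library, and the library labelled replicate 3 was below the lowest. The 5-library log2 difference was 1.23 (SE 0.46, limma adjusted p = 0.653). It was 0.33 when 5xFAD replicate 1 was left out and 2.14 when replicate 2 was left out. Each of these fits leaves 1 5xFAD library and takes its spread from WT alone. H2-Eb1, the beta chain of the second class II isotype, was at 2.88 and 1.12 FPKM in 5xFAD replicates 1 and 2, with 0.866 FPKM for the library labelled 5xFAD replicate 3, against 1.35, 0.756 and 0.509 FPKM in WT. Here the groups overlapped, since 5xFAD replicate 2 was below WT replicate 1. Its 5-library log2 difference was 0.64 (SE 0.29, limma adjusted p = 0.956).

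Cd74, which chaperones the chains, was the most abundant of the 6 genes. It was at 35.5 and 13.2 FPKM in 5xFAD replicates 1 and 2, with 3.63 FPKM for the library labelled 5xFAD replicate 3, against 3.98, 1.82 and 2.05 FPKM in WT. Replicates 1 and 2 were both above all WT libraries, and WT replicate 1 was the highest of the WT libraries. Cd74 rose by 2.70 on the log2 scale over the 5 libraries (SE 0.40, limma adjusted p = 0.0275). The call was lost without WT replicate 2 (limma adjusted p = 0.0824), without WT replicate 3 (0.0988), and when low genes were kept in the fit (0.0878). It was also lost without 5xFAD replicate 1, where the difference was 2.02 and 1 5xFAD library was left. Over all 6 libraries the difference was 1.94 (SE 0.65, limma adjusted p = 1.00).

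Ciita was the least abundant, at 0.820 and 0.376 FPKM in 5xFAD replicates 1 and 2, with 0.566 FPKM for the library labelled 5xFAD replicate 3, against 0.477, 0.528 and 0.352 FPKM in WT. The groups overlapped, and 5xFAD replicate 2 lay within the WT range. The 5-library log2 difference was 0.13 (SE 0.19, limma adjusted p = 0.999). At this level an added pseudocount of 1 damps any change. The alternatives that tested Ciita over the 5 libraries gave 0.05 to 0.33, with none past the threshold.

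Lag3, an inhibitory receptor of T cells that binds class II with high affinity, was at 10.9 and 8.14 FPKM in 5xFAD replicates 1 and 2, with 2.14 FPKM for the library labelled 5xFAD replicate 3, against 1.42, 1.53 and 1.52 FPKM in WT. All 3 libraries labelled 5xFAD were above WT, which held for this gene alone of the 6, against 2.92% of the genes tested. Lag3 rose by 2.06 over the 5 libraries (SE 0.16, limma adjusted p = 0.00109). The call held in all 15 alternatives run on the 5 libraries, though those that left 1 5xFAD library took their spread from WT alone. Over all 6 libraries the difference was 1.49 (SE 0.43, limma adjusted p = 1.00).

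Over the 6 genes, limma called 2 higher in 5xFAD in the 5 libraries, against 1.18% of the 14527 genes tested there, and 4 had an unadjusted p under 0.05, against 5.91%. For 4 of the 6, 5xFAD replicates 1 and 2 were both above all WT libraries, against 10.6% of the genes tested. Over all 6 libraries limma called 0 of the 6 genes and 1 of 14500 genes in all (0.0069%), and 3 of the 6 had an unadjusted p under 0.05, against 2.92%. The library labelled 5xFAD replicate 3 lay within the WT range for 3 of the 6 genes, against 68.7% of the genes tested. All 6 genes passed the filter of a mean of at least 0.5 FPKM, and Ciita would not pass without 5xFAD replicate 1.

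**Figure D2:**
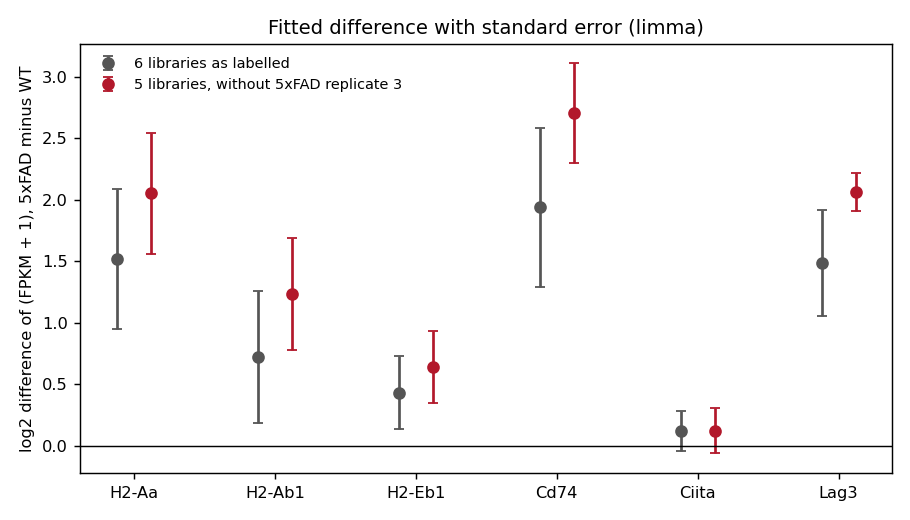
Fitted log2 difference of FPKM + 1, 5xFAD minus WT (y axis), for each gene (x axis), as points with bars of 1 standard error, for all 6 libraries and for the 5 without the library labelled 5xFAD replicate 3. The differences of Lag3 (2.06, SE 0.16) and Cd74 (2.70, SE 0.40) passed the test in the 5 libraries, and Ciita was closest to 0.

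In both groups Cd74 was the most abundant of the 6 by mean FPKM and Lag3 the next, and H2-Eb1 and Ciita were the lowest. In 5xFAD replicates 1 and 2, H2-Aa at 7.72 ± 6.02 FPKM (SD, n = 2) came before H2-Ab1 at 4.72 ± 4.49 FPKM (SD, n = 2), and in WT H2-Ab1 at 1.03 ± 0.179 FPKM (SD, n = 3) came before H2-Aa at 0.954 ± 0.821 FPKM (SD, n = 3). By the SD between libraries, these neighbours did not differ beyond their spread in either group, nor did Cd74 and Lag3, nor Lag3 and H2-Aa in 5xFAD. Taken library by library, however, Cd74 was above Lag3 in every library. H2-Aa was above H2-Ab1 in every library labelled 5xFAD and in WT replicate 1, and below it in WT replicates 2 and 3. Within WT the means of Lag3 and H2-Ab1 differed by more than the SD of either. The FPKM ratio of H2-Aa to H2-Ab1 was 1.52 and 2.25 in 5xFAD replicates 1 and 2, with 2.30 for the library labelled 5xFAD replicate 3, against 1.51, 0.837 and 0.210 in WT. The ratio of Cd74 to the sum of the 3 chain genes was 1.56, 2.16 and 1.20 in the libraries labelled 5xFAD, against 0.912, 0.681 and 1.34 in WT.

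The 2 5xFAD libraries with high Thy1 also differed from each other. 5xFAD replicate 1 exceeded replicate 2 for all 6 genes, by 5.12 times in FPKM for H2-Ab1, 3.46 times for H2-Aa, 2.68 times for Cd74, 2.56 times for H2-Eb1, 2.18 times for Ciita and 1.33 times for Lag3. On the log2 scale of FPKM + 1, 3 of the 6 were at least 2-fold higher in replicate 1, against 0.269% of 14500 genes. H2-Ab1 (1.81) ranked 9 among all genes in this difference, H2-Aa (1.54) ranked 13, Cd74 (1.36) ranked 16, H2-Eb1 (0.87) ranked 64, Ciita (0.40) ranked 878 and Lag3 (0.37) ranked 1078. With 1 library on each side there is no test, and H2-Eb1 was just under the 2-fold line.

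Replicate 1 and replicate 2 differ in sex as well as in everything else that sets these libraries apart, and these cannot be told apart. In WT, replicate 1 was also the highest library for H2-Aa, H2-Ab1, H2-Eb1 and Cd74. Taken within sex, the log2 difference of Cd74 was 2.87 for 5xFAD replicate 1 over WT replicate 1, and 2.28 for 5xFAD replicate 2 over the mean of WT replicates 2 and 3. H2-Aa gave 2.21 and 1.59 in the same order of pairs, Lag3 2.29 and 1.86, H2-Ab1 2.01 and 0.39, H2-Eb1 0.72 and 0.38, and Ciita 0.30 and -0.06. The difference between these pairs is given without a test, because 3 of the 4 combinations of genotype and sex hold 1 library each and the spread would come from WT replicates 2 and 3 alone.

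**Figure D3:**
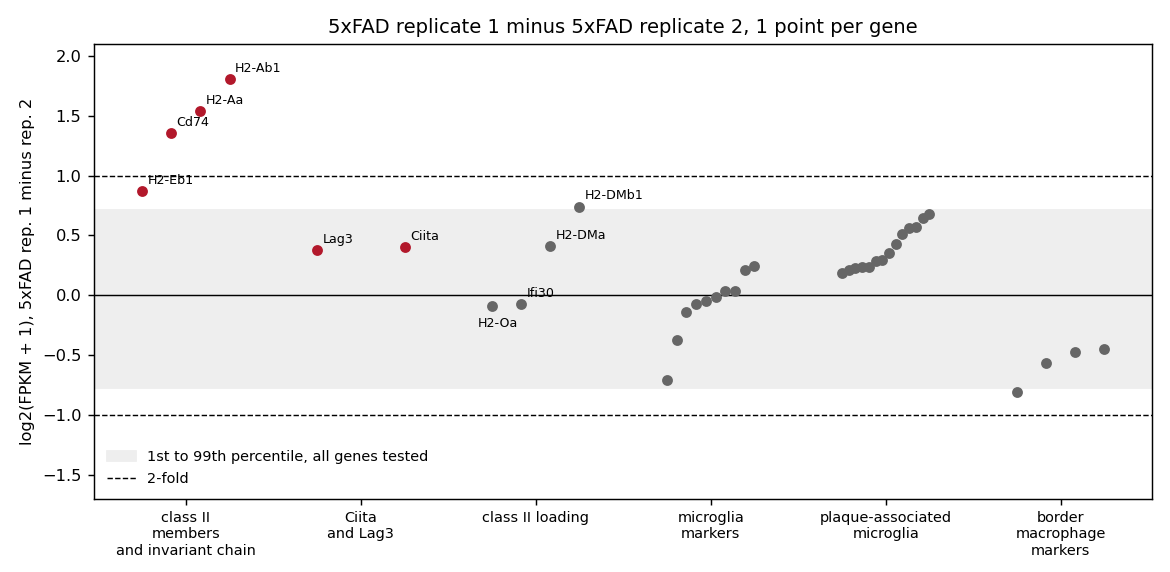
Difference in log2(FPKM + 1) between 5xFAD replicate 1 and 5xFAD replicate 2 (y axis), 1 point per gene, for the genes described here (red) and comparison lists (grey), with the band from the 1st to the 99th percentile of all genes tested and dashed lines at 2-fold. H2-Ab1, H2-Aa and Cd74 lie above the 2-fold line at 1.81, 1.54 and 1.36, while microglia markers run from -0.70 to 0.24.

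Microglia can express class II when activated, so microglia markers were set beside these values. In whole tissue, more cells of a type and more RNA per cell cannot be told apart. The summed FPKM of 10 microglia markers was 352 and 365 in replicates 1 and 2 of 5xFAD, with 139 for the library labelled 5xFAD replicate 3, against 121, 148 and 135 in WT. This sum was 2.61 and 2.71 times the WT mean in replicates 1 and 2, so these libraries were close to each other in microglia markers. Of the 10 markers, 6 were called higher over the 5 libraries, against 1.18% of all genes tested. That share is the background for the list counts of genes called higher below. Among the 6 were Fcrls and Csf1r at 1.71 and 1.32 on the log2 scale. Between replicates 1 and 2, 0 of the 10 differed 2-fold, near the 0.703% of 14500 genes that did.

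The 3 chain genes together were 7.97 and 2.15 times the WT mean in 5xFAD replicates 1 and 2. Set against the microglia sum, they amounted to 6.46% and 1.68% in replicates 1 and 2, with 2.18% for the library labelled 5xFAD replicate 3, against 3.6%, 1.81% and 1.13% in WT. Replicate 2 thus fell within the WT range on this ratio, and replicate 1 above it. Cd74 amounted to 10.1%, 3.62% and 2.62% of the microglia sum in the libraries labelled 5xFAD, against 3.29%, 1.23% and 1.51% in WT, with replicates 1 and 2 both above WT. Lag3 amounted to 3.08%, 2.23% and 1.54%, against 1.17%, 1.04% and 1.13% in WT, with no overlap.

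**Figure D4:**
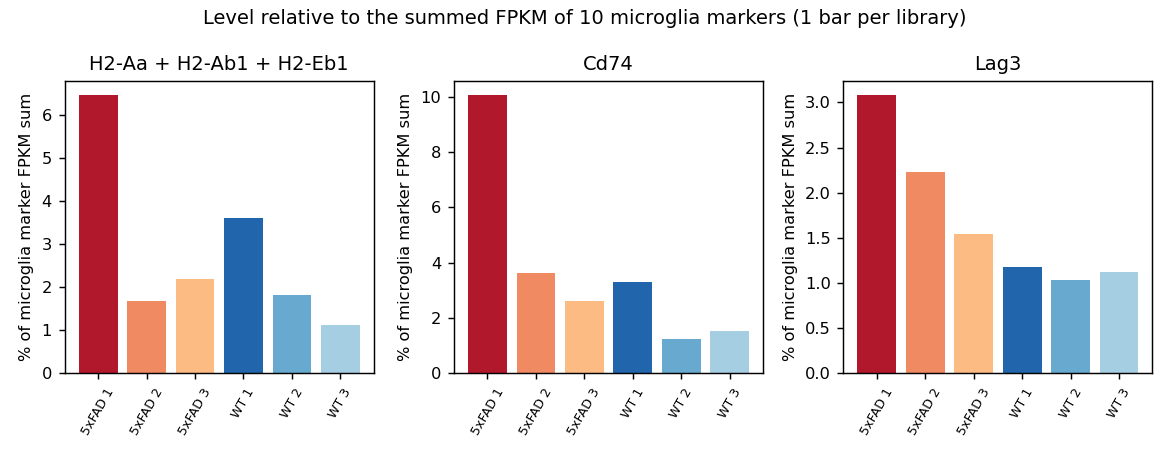
Summed FPKM of H2-Aa, H2-Ab1 and H2-Eb1, and FPKM of Cd74 and of Lag3, each as a percentage of the summed FPKM of 10 microglia markers (y axes, from 0) in each library (x axes). The chain genes reach 6.46% in 5xFAD replicate 1 and 1.68% in 5xFAD replicate 2, against 1.13% to 3.6% in WT.

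Plaque-associated microglia genes, which microglia switch on at amyloid deposits, differed less between the same libraries than the 3 chain genes and Cd74. Of these 14 genes, 10 were called higher over the 5 libraries, with a median log2 difference of 2.15 beside -0.02 over all genes tested. All 14 were higher in replicate 1 than in replicate 2, by 0.18 to 0.68 on the log2 scale. As with the microglia markers, 0 reached 2-fold, near the 0.703% over all genes tested. Cst7, a cystatin that inhibits lysosomal proteases, was at 49.7 and 42.4 FPKM in replicates 1 and 2. Trem2, a lipid receptor, was at 71.0 and 47.8 FPKM.

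Lists of other cells that can carry class II were then read in the same libraries. Of 8 border macrophage markers, 4 passed the filter and 0 were called, and all 4 were lower in 5xFAD replicate 1 than in replicate 2, by 0.45 to 0.81 on the log2 scale; their summed FPKM was 2.55, 5.82 and 5.86 in the libraries labelled 5xFAD, against 3.53, 2.89 and 3.62 in WT. Of 8 B cell and plasma cell markers, 0 passed the filter, and their sum was 0.650 to 1.36 FPKM in the libraries labelled 5xFAD, against 0.920 to 1.24 FPKM in WT. Of 8 dendritic cell markers 3 passed the filter, and the 1 called, Siglech, is also a microglial gene. Zbtb46, a dendritic cell transcription factor that vessel cells also express, was at 3.79, 1.62 and 3.11 FPKM in the libraries labelled 5xFAD, against 3.98, 2.59 and 3.08 FPKM in WT. Choroid plexus and ependyma markers summed to 61.8 and 79.6 FPKM in 5xFAD replicates 1 and 2, with 499 FPKM for the library labelled 5xFAD replicate 3, against 2869, 47.7 and 73.2 FPKM in WT. WT replicate 1, the highest WT library for 4 of the 6 genes, was also the one with the most choroid plexus RNA, and the part of that RNA in its class II values was not tested.

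T cells are the usual carriers of Lag3. Of 16 T cell markers, 13 stayed below 0.5 FPKM in every library, and their sum was 5.63, 5.03 and 2.82 FPKM in the libraries labelled 5xFAD, against 4.04, 2.75 and 4.54 FPKM in WT. Cd3e, a subunit of the T cell receptor complex, was at 0.119, 0 and 0.104 FPKM in the libraries labelled 5xFAD, against 0.119, 0 and 0 FPKM in WT. Cd4, the co-receptor for class II, was at 0.149, 0.204 and 0.108 FPKM, against 0.0250, 0.0315 and 0.0761 FPKM in WT. Zap70 and Lck, the 2 T cell markers that passed the filter, were not called over the 5 libraries. Zap70 was at 2.096, 1.228 and 1.402 FPKM in the libraries labelled 5xFAD, against 2.713, 1.974 and 2.69 FPKM in WT. Lck was at 0.889, 0.556 and 0.438 FPKM in the libraries labelled 5xFAD, against 0.389, 0.147 and 0.712 FPKM in WT. Lag3 at 8.14 to 10.9 FPKM was thus above every T cell marker named here in 5xFAD replicates 1 and 2.

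Peptide loading follows chain assembly. Of 8 chain and loading genes, 4 passed the filter, 4 of 4 had positive differences over the 5 libraries and 0 were called, with a median of 0.79 beside -0.02 over all genes. H2-DMb1, the beta subunit of the H2-DM peptide editor, was at 4.08 and 2.04 FPKM in 5xFAD replicates 1 and 2, with 1.31 FPKM for the library labelled 5xFAD replicate 3, against 1.64, 0.605 and 0.629 FPKM in WT (log2 difference 1.04, SE 0.30, limma adjusted p = 0.315). Its groups did not overlap once the library labelled 5xFAD replicate 3 was set aside, and replicate 1 again stood above replicate 2, though reads of H2-DMb1 could be shared with the similar H2-DMb2. H2-DMa, the alpha subunit, was at 8.35, 6.03 and 4.80 FPKM in the libraries labelled 5xFAD, against 5.84, 4.64 and 6.05 FPKM in WT, with overlap. H2-Oa, a subunit of the H2-O inhibitor of H2-DM, was at 1.23, 1.37 and 0.231 FPKM, against 0.442, 0.671 and 0.181 FPKM in WT. Ifi30, the lysosomal thiol reductase that unfolds antigens, was at 4.49, 4.78 and 2.18 FPKM, against 2.51, 2.20 and 1.48 FPKM in WT (log2 difference 0.89, SE 0.18, limma adjusted p = 0.0861). Neither H2-Oa nor Ifi30 was higher in replicate 1 than in replicate 2. H2-DMb2 and H2-Ob, the other H2-O subunit, did not exceed 0.390 and 0.904 FPKM in any library and were not tested. H2-Eb2 and the pseudogene H2-Ea were listed at 0 in all 6 libraries.

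Lysosomal proteases degrade the invariant chain and antigens. Of 9 processing and turnover genes, all tested, 4 were called higher in 5xFAD over the 5 libraries and 0 lower, with a median of 0.68, and 0 were called over all 6 libraries. Ctss, the cysteine protease that makes the last cuts in the invariant chain, was at 218 and 197 FPKM in 5xFAD replicates 1 and 2, with 42.4 FPKM for the library labelled 5xFAD replicate 3, against 42.3, 39.5 and 43.1 FPKM in WT, and rose by 2.29 (SE 0.11, limma adjusted p = 0.000185). Replicates 1 and 2 were close to each other and several times above WT. Ctsz rose by 2.08, Ctsd by 1.84 and Ctsb by 0.63. Ctsl, another cysteine protease, differed by 0.90 (SE 0.17, limma adjusted p = 0.0627) without passing. Lgmn, an asparaginyl protease, had a difference of 0.68 that missed the threshold (SE 0.15, limma adjusted p = 0.111). March1, which marks surface class II for degradation, differed by -0.12 (SE 0.16, limma adjusted p = 0.999).

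Of 16 genes upstream of Ciita or in its promoter complex, 15 were tested, 3 were called higher and 0 lower, with a median of 0.01. Among the called genes were Irf8 (1.70, SE 0.17, limma adjusted p = 0.00428) and Spi1 (1.29, SE 0.16, limma adjusted p = 0.0133), both transcription factors of the myeloid lineage. Rfx5, Rfxap and Rfxank, the RFX subunits that Ciita docks on, differed by 0.12, -0.01 and 0.00, each less than its standard error. Irf1 was at 6.17, 3.42 and 3.25 FPKM in the libraries labelled 5xFAD, against 3.93, 2.89 and 3.24 FPKM in WT, higher in replicate 1 than in replicate 2 by 0.70. Ifng was listed at 0 in every library but WT replicate 3, where it was at 0.0756 FPKM. Its receptor gene Ifngr1 differed by 0.42 (SE 0.12, limma adjusted p = 0.357).

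Co-stimulatory and checkpoint ligands modulate the signal to T cells. Of 7 such genes 4 were tested and 1 was called, Cd86, at 1.91 and 2.15 FPKM in 5xFAD replicates 1 and 2, with 0.833 FPKM for the library labelled 5xFAD replicate 3, against 0.310, 0.587 and 0.473 FPKM in WT (log2 difference 1.06, SE 0.16, limma adjusted p = 0.0304). Cd80 did not exceed 0.388 FPKM and Cd40 did not exceed 0.158 FPKM in any library. Of 5 other ligands or partners reported for Lag3 and 5 for Cd74, 3 and 4 were tested and 0 were called. Mif, the cytokine that binds Cd74, was at 163, 148 and 129 FPKM in the libraries labelled 5xFAD, against 160, 123 and 163 FPKM in WT.

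The class II chain genes lie next to one another on chromosome 17, and a run of class I processing genes lies between H2-DMb1 and H2-Ob. RefSeq lists 15 protein-coding genes from H2-Oa to Btnl2, and all 15 were in the table. Of the 6 that are not class II genes, 5 were tested. Their differences between 5xFAD replicates 1 and 2 ran from -0.10 to 0.41, so none reached the 0.87 to 1.81 of the 3 chain genes. Nor did the other class II genes tested in the region, at 0.74 for H2-DMb1, 0.41 for H2-DMa and -0.09 for H2-Oa. Psmb8, an immunoproteasome subunit from the middle of the region, was called higher over the 5 libraries (1.54, SE 0.21, limma adjusted p = 0.0176), at 9.09 and 6.57 FPKM in 5xFAD replicates 1 and 2, against 1.64 to 2.76 FPKM in WT. Brd2, a chromatin reader in the same region, was at 39.0 and 39.3 FPKM in 5xFAD replicates 1 and 2, against 38.6 to 41.2 FPKM in WT.

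**Figure D5:**
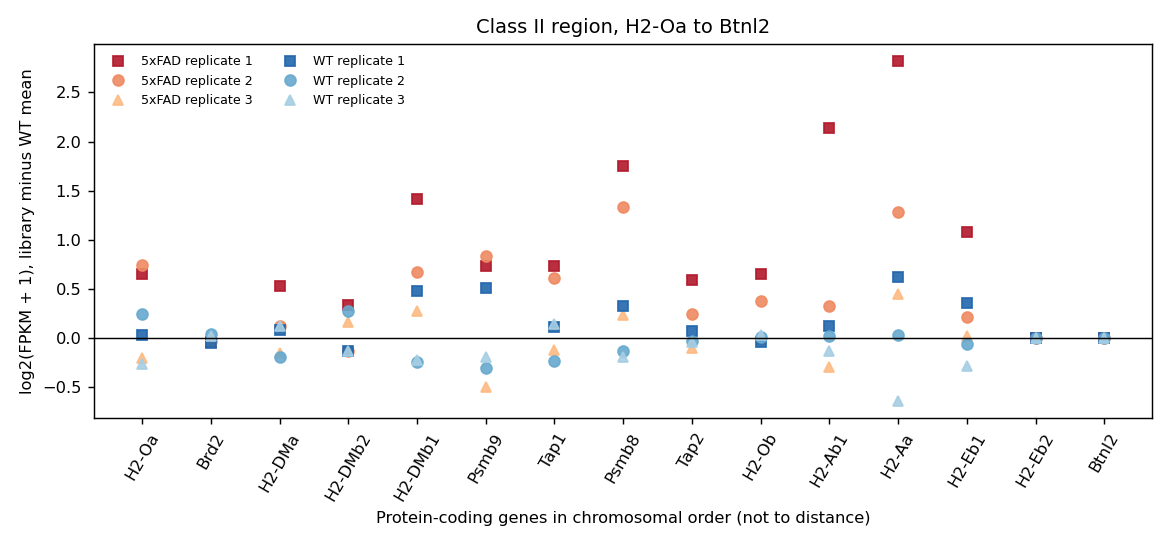
Level of each protein-coding gene of the class II region relative to its WT mean, in log2(FPKM + 1) (y axis), for each library, with genes in chromosomal order and not to distance (x axis). H2-Ab1, H2-Aa and H2-Eb1 are high in 5xFAD replicate 1 and lower in replicate 2, while Psmb8 is high in both.

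Across the 6 libraries the log2 values of the chain genes and Cd74 followed one another, with Pearson's r from 0.889 to 0.965 over 6 libraries and 5xFAD replicate 1 as the highest point of each. Lag3 followed Cd74 (r = 0.958) more closely than H2-Eb1 (r = 0.741), and Ciita had r of 0.448 with Lag3 and 0.797 with H2-Eb1. Among 13385 other genes with a mean of at least 1 FPKM, the patterns most like Lag3 were those of Gusb (r = 0.998), a lysosomal glucuronidase, Tnfaip8l2 and Capg (both 0.996). Those most like Cd74 were Lmf1 (0.997) and Man2b1 (0.993), a lysosomal mannosidase, and those most like H2-Aa were Parp3 and Fes (both 0.991). H2-Ab1 was closest to Atp13a4 (0.985), H2-Eb1 to Micalcl (0.995) and Ciita to Ntn1 (0.986). With 6 points that share depth and tissue, r this high is found for many genes by design of the ranking.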

How the data were processed

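Gene levels of the 6 CG libraries are FPKM values as deposited by the authors, whose quantifier, annotation and strand setting were not given in the sources used here. Per the labels' protocols, hippocampal RNA came from a TRIzol extraction, and rRNA-depleted libraries were read from both ends, and per the submitters' processing notes the build was mm9 and DESeq was used. The deposited junction signal of the 6 AT libraries was used to count intervals by gene name alone. Groups came from the titles. FPKM values were tested with limma 3.58.1 in R 4.3.3, with a mean trend, on log2(FPKM + 1) over genes with a mean of at least 0.5 FPKM, as a two-sided test, calling genes at a Benjamini-Hochberg adjusted p under 0.05, which understates changes of low genes. The fits were tested on simulated data. Reads of overlapping or similar genes could be split by the authors' counting. The genes, lists and tests were chosen with earlier results of these data known. Always named were the 6 genes and fixed pathway genes; of each list up to 4 with the smallest p, and the 5 most similar genes by Pearson's r. Zbtb46, Mif, March1, Psmb8, Brd2, Pdcd1, H2-L and Rbm3 were named after their values were seen. Some list genes are not reported here by name. Older symbols were matched by hand to the spelling used in the deposited data. Alternatives were pseudocounts 0.1 and 0.5, filters, scaling, weights, trend, a replicate block, leaving out each library, and, added after the data were seen, sex. Deviations of same-numbered libraries correlated at 0.415, 0.279 and 0.0398 for replicates 1, 2 and 3, against -0.358 to 0.153 for unlike numbers. Replicates 1 and 2 were thus most like their own number. The main fits did not take the numbers as pairs, and the replicate block was run as an alternative.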

Additional observations from a re-analysis of the deposited data

How the results depend on the processing

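Every log2 difference of the 6 genes kept its sign under each alternative that gave a value. Over the 5 libraries, leaving out 1 library gave 35 to 174 genes called and 1 to 3 of the 6 genes; over all 6 libraries it gave 1 to 174 genes and 0 to 2 of the 6, the highest being the fit without the library labelled 5xFAD replicate 3. The lowest 5-library count, 35, came without 5xFAD replicate 1, and it was 52 without 5xFAD replicate 2, where the lone 5xFAD library is assumed to vary like the WT libraries. It was also 84 without WT replicate 3 and 106 without WT replicate 2. No filter on low values left 1 of the 6 genes called over the 5 libraries. Array quality weights called H2-Aa as well (limma adjusted p = 0.0402, with 0.0188 to 0.844 over its alternatives), and with sex as a term 194 genes were called. With the replicate block the 5-library fit called 201 genes and 3 of the 6, H2-Aa among them (limma adjusted p = 0.0188). There WT replicate 3 has no 5xFAD partner, so these differences rest on replicates 1 and 2 alone, with very little left to estimate the spread. The H2-Aa difference, 1.73, equalled that without WT replicate 3, which did not pass (limma adjusted p = 0.443). With the block the 6-library fit called 1 gene and 0 of the 6. With a pseudocount of 0.1, 384 genes differed 2-fold between 5xFAD replicates 1 and 2, against 102 with 1, and 4 of the 6 genes did, H2-Eb1 at 1.28. Ciita was not tested without 5xFAD replicate 1 over the 5 libraries, because its mean fell below the filter. With no read counts, the precision of values under 1 FPKM is unknown.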

Other observations

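Pdcd1, the T cell checkpoint receptor PD-1, was at 1.01 and 1.04 FPKM in 5xFAD replicates 1 and 2, with 0.0366 FPKM for the library labelled 5xFAD replicate 3, against 0.169, 0.0533 and 0.129 FPKM in WT. It was below the filter and not tested, and it was picked out after its values were seen. Dcn, a proteoglycan of meninges and vessels, was the 1 list gene called lower over the 5 libraries (-0.79, SE 0.13, limma adjusted p = 0.0355).

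Outside the sex-linked genes, genes much higher in 5xFAD replicate 1 than in replicate 2 by log2(FPKM + 1) included Rpl26 (1.84), H2-L (1.65) and Rbm3 (1.37), the last a cold-inducible RNA-binding protein at 91.6 and 34.8 FPKM in 5xFAD replicates 1 and 2, against 88.0, 44.3 and 35.1 FPKM in WT. Rbm3 was thus high in replicate 1 of both genotypes. For H2-Ab1, WT replicate 1 exceeded the mean of WT replicates 2 and 3 by only 0.18 on the same log2 scale. That excess was 0.92 for H2-Aa, 0.76 for Cd74 and 0.53 for H2-Eb1, with 0.04 for Ciita and -0.06 for Lag3.

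Of 7025 AT intervals, 0 named any of the 6 genes, while 4 named Creb1 and 1 named Jak2 from the Ciita list.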
